A study of Mus musculus with 12 samples.

Results

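The TGF-beta pathway genes described here are 9 named genes: the ligand Tgfb1, the receptors Tgfbr1 and Tgfbr2, the signal transducers Smad2, Smad3 and Smad4, the inhibitory Smad7, and the corepressors Ski and Skil. They were taken by symbol from the 29522 genes of each expression file. The list was drawn up with earlier results of these data known, although no measured value is part of its rule. All 9 passed the filter of a mean of at least 1 FPKM (fragments per kilobase of exon, scaled to sequencing depth) in at least 1 group. Bulk RNA was sequenced from mouse T cells of wild-type C57BL/6J spleen, isolated as naive CD4+ cells, activated with a CD3/CD28 cocktail and grown under Th17-polarising conditions. The 4 groups were vehicle, ILA at 200 uM, GSK805 at 0.5 uM, and GSK805 with ILA, each with 3 libraries labelled as biological replicates. ILA is understood here as indole-3-lactic acid, a tryptophan catabolite of gut bacteria, while GSK805 blocks a nuclear receptor of the Th17 lineage. All 4 groups share the genotype, the activation and the Th17 conditions, so every change described is one within such cultures. The labels name neither single animals nor the treatment time, and if the replicates share a source, p-values measure only the spread between these libraries.

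TGF-beta is made as a latent protein and, once released, binds the type II receptor Tgfbr2, which recruits and phosphorylates the type I receptor Tgfbr1. Tgfbr1 then phosphorylates Smad2 and Smad3, which join Smad4 and enter the nucleus. Smad7 blocks the active receptor, while Ski and Skil (also called SnoN) bind SMAD complexes and hold their target genes down. In CD4+ T cells this pathway is needed for both regulatory T cells and, together with IL-6, Th17 cells.

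ILA raised Smad3 and Tgfbr2 and lowered Tgfbr1, and these were the largest changes from vehicle with ILA alone among the 9 genes. GSK805 raised Smad3 and Tgfbr2 as well, but raised Tgfbr1. For these 3 genes, the 250 bases before the annotated transcription start are shown, 5′ to 3′ on the strand of the gene, from RefSeq promoters on GRCm38.p6 (the mm10 build that the submitters name). They lie at chr9:63757995-63758244 for Smad3 (minus strand), chr9:116175364-116175613 for Tgfbr2 (minus strand) and chr4:47352972-47353221 for Tgfbr1 (plus strand). Capitals mark GCGTG, or CACGC on the other strand, the core sequence bound by the aryl hydrocarbon receptor, a receptor for many indole compounds.
Smad3: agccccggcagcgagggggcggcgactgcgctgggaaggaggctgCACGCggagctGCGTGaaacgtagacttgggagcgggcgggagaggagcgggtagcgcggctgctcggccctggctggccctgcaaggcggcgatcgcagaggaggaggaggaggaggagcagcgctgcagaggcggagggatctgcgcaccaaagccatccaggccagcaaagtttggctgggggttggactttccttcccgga
Tgfbr2: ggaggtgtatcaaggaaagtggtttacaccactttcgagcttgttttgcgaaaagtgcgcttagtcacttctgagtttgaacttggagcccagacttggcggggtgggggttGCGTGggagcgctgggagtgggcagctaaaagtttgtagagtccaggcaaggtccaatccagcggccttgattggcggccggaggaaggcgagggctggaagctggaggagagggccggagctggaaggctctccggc
Tgfbr1: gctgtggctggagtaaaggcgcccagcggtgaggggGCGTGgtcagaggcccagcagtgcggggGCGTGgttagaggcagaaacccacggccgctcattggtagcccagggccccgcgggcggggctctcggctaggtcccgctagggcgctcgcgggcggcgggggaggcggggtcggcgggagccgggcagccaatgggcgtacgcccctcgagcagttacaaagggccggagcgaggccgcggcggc
The core occurs 2 times in the Smad3 window, 1 time in that of Tgfbr2 and 2 times in that of Tgfbr1. The windows of Tgfb1 and Ski also hold it, 1 time each. Among 32851 promoters of the same length, 28.2% hold it. Windows of Smad2, Smad4, Smad7 and Skil are not reported here. The 5 genes with a window were all called with ILA, so these matches do not give a share for the 9 genes. The search covered both strands for each motif. AGGTCA, a core bound by many nuclear receptors, is in none of these 5 windows and in 14.0% of all promoters. CAGAC, an element that SMAD proteins bind, occurs 1 time in the Tgfbr2 window, at other bases than the capitals, in none of the other 4, and in 42.2% of all promoters. These 5 windows are 58.4 to 87.6% G or C, and the part of base composition in the matches was not tested. Matches are letters in a window, not sites shown to be bound.

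All values below are FPKM, which the authors scaled for gene length and library size, and each gene is given as its 3 libraries and then as mean ± SD. Fold changes and adjusted p-values come from limma on log2(FPKM + 1), fitted over all 13511 genes that passed the filter, with Benjamini-Hochberg adjustment and a call below 0.05. Whole reads recovered from the FPKM put the libraries at 17.84 to 23.49 M reads, and the 9 genes at 631 to 7647 reads in a library. In bulk RNA, fewer cells of a type and less RNA per cell cannot be told apart.

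Tgfb1, the ligand, had the highest FPKM of the 9 genes. It measured 46.2, 50.4 and 48.2 FPKM in the vehicle libraries (48.3 ± 2.09, SD, n = 3), above 92.0% of tested genes in that group. It measured 60.9, 63.0 and 61.7 FPKM with ILA (61.9 ± 1.04, SD, n = 3). All ILA libraries lay above all vehicle libraries, a rise of 1.28-fold (log2 0.35 ± 0.048, SE; adjusted p = 7.4e-05). The GSK805 libraries measured 53.6, 59.1 and 51.9 FPKM (54.9 ± 3.79, SD, n = 3), and the rise of 1.13-fold over vehicle passed the test (adjusted p = 0.0213). That GSK805 call was lost without vehicle replicate 1 (0.0659), vehicle replicate 3 (0.0598) or GSK805 replicate 2 (0.0696), after centring each library on its median (0.182), with no filter on low values (0.0538) and with only the groups compared in the fit (0.0838). With both compounds Tgfb1 measured 63.6, 62.5 and 64.6 FPKM (63.6 ± 1.01, SD, n = 3), 1.31-fold above vehicle (adjusted p = 4.4e-05) and overlapping the ILA libraries.

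The 2 receptors went in opposite directions with ILA. Tgfbr2, the type II receptor that binds the ligand, measured 16.0, 15.6 and 16.1 FPKM in vehicle (15.9 ± 0.248, SD, n = 3) and 29.6, 27.6 and 29.6 FPKM with ILA (29.0 ± 1.2, SD, n = 3). The rise was 1.77-fold (log2 0.82 ± 0.046, SE; adjusted p = 6.1e-08). GSK805 gave 23.9, 22.5 and 22.8 FPKM (23.0 ± 0.717, SD, n = 3), a rise of 1.42-fold (adjusted p = 4.1e-05). These libraries lay between the vehicle and the ILA libraries without touching either. With both compounds the libraries measured 29.8, 28.6 and 26.9 FPKM (28.4 ± 1.48, SD, n = 3), overlapping those with ILA alone (log2 difference -0.03, adjusted p = 0.747).

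Tgfbr1, the type I receptor kinase, measured 9.53, 8.75 and 8.85 FPKM in vehicle (9.04 ± 0.423, SD, n = 3) and 5.79, 5.13 and 5.54 FPKM with ILA (5.49 ± 0.332, SD, n = 3). It fell 1.55-fold (log2 -0.63 ± 0.063, SE; adjusted p = 5.8e-06). With GSK805 it measured 11.4, 11.3 and 10.4 FPKM (11.0 ± 0.562, SD, n = 3), a rise of 1.2-fold (adjusted p = 0.0121). The call for GSK805 was lost after quantile normalization (0.0618) and median centring (0.0548). With both compounds it measured 7.09, 7.41 and 6.49 FPKM (6.99 ± 0.467, SD, n = 3), which was 1.26-fold below vehicle (adjusted p = 0.001) and 1.23-fold above ILA alone (adjusted p = 0.00748). From low to high the groups ran ILA, both compounds, vehicle, GSK805, and no neighbouring groups overlapped.

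**Figure D1:**
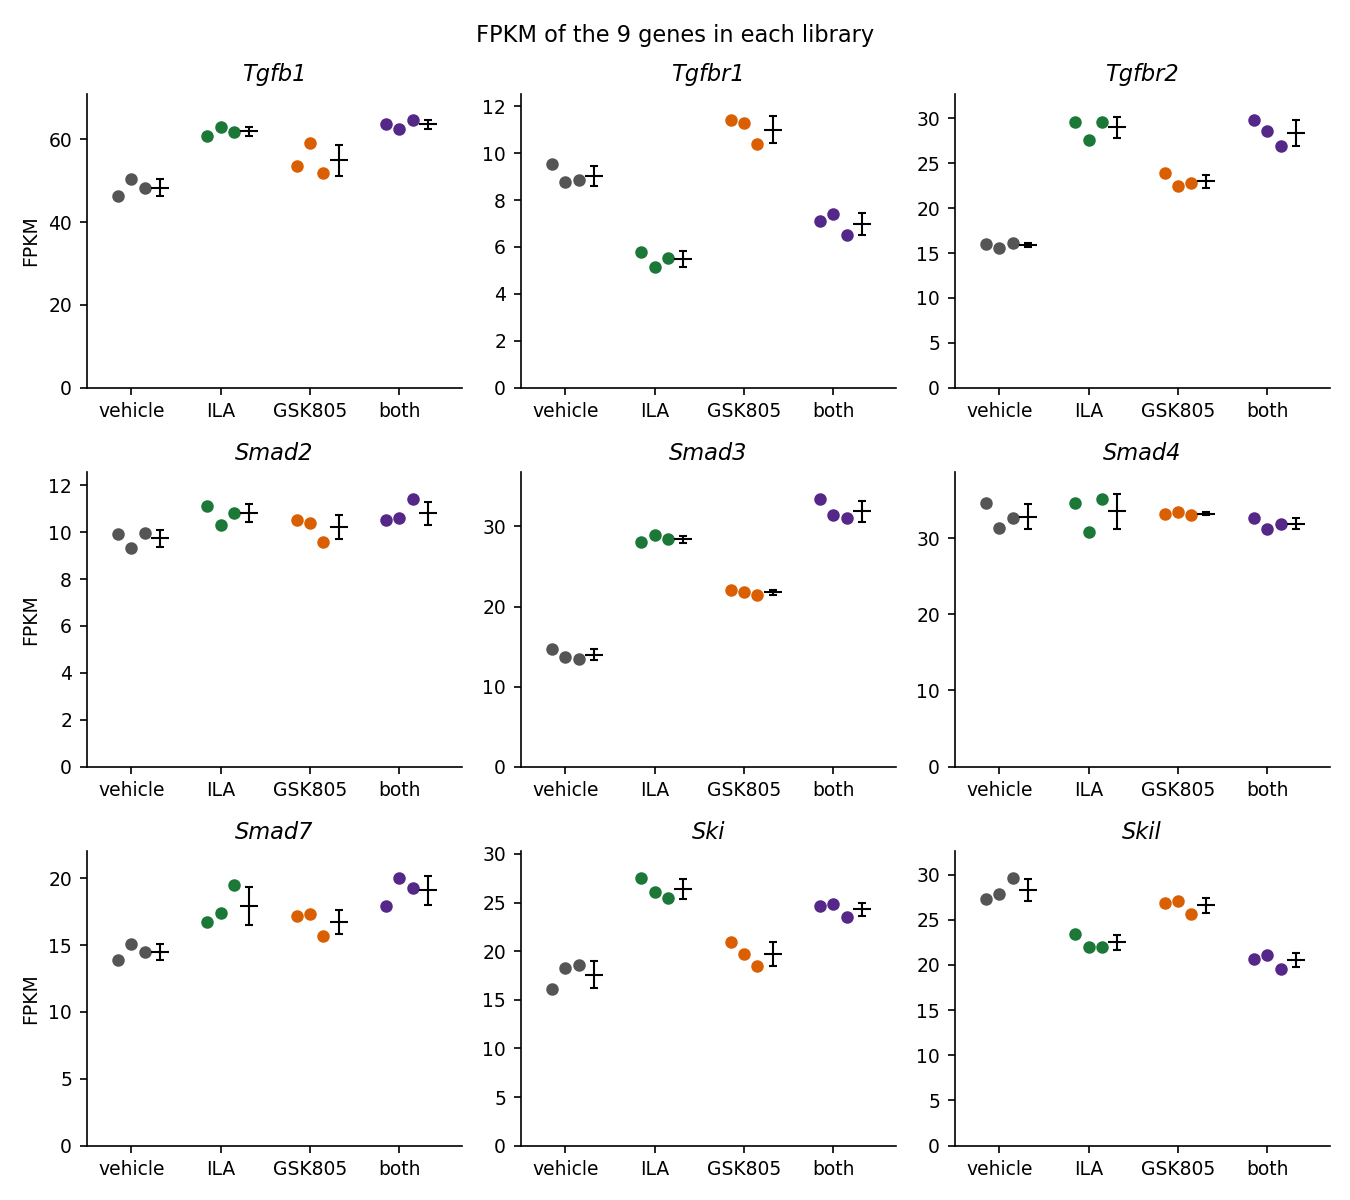
FPKM (y axis, from 0) of each of the 9 genes in the 12 libraries, grouped on the x axis as vehicle, ILA, GSK805 and both compounds. Each point is 1 library, and the bar beside each group is the mean with its SD (n = 3). Smad3 runs from 13.5 FPKM in the lowest vehicle library to 33.4 in the highest library with both compounds, while the Smad4 groups overlap.

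Smad3 and Smad2 are the 2 receptor-activated SMADs of the TGF-beta branch, and their levels responded unequally. Smad3 measured 14.7, 13.7 and 13.5 FPKM in vehicle (14.0 ± 0.655, SD, n = 3) and 28.0, 28.9 and 28.4 FPKM with ILA (28.4 ± 0.451, SD, n = 3). This rise of 1.96-fold was the largest ILA change among the 9 genes (log2 0.97 ± 0.042, SE; adjusted p = 1e-08). GSK805 gave 22.1, 21.8 and 21.4 FPKM (21.8 ± 0.308, SD, n = 3), 1.52-fold above vehicle (adjusted p = 9.9e-06). Both compounds gave 33.4, 31.4 and 31.0 FPKM (31.9 ± 1.31, SD, n = 3), 2.2-fold above vehicle (adjusted p = 5.8e-09). The 4 groups did not overlap in the order vehicle, GSK805, ILA, both compounds. The last step, 1.12-fold from ILA to both compounds (adjusted p = 0.021), was lost without ILA replicate 1 (0.0715) and without GSK805+ILA replicate 1 (0.0799).

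Smad2 stayed within a narrow range, at 9.9, 9.32 and 9.97 FPKM in vehicle (9.73 ± 0.358, SD, n = 3), 11.1, 10.3 and 10.8 with ILA (10.8 ± 0.391), 10.5, 10.4 and 9.57 with GSK805 (10.2 ± 0.514) and 10.5, 10.6 and 11.4 with both compounds (10.8 ± 0.477). Neighbouring groups in order of level all overlapped. The ILA difference from vehicle was 1.1-fold, at the edge of the test (adjusted p = 0.0473). It passed without ILA replicate 2, GSK805 replicate 3 or GSK805+ILA replicate 3 and was lost without each of the other 9 libraries (0.0531 to 0.147), and median centring turned it to log2 -0.0034 (0.961). It was also lost under 5 other settings, among them quantile normalization (0.633) and the replicate block (0.0601). The difference with both compounds was also 1.1-fold (adjusted p = 0.0424). It was lost without any 1 of the 3 vehicle libraries, ILA replicate 3, GSK805 replicate 2, GSK805+ILA replicate 2 or GSK805+ILA replicate 3 (0.0524 to 0.148), and under 5 other settings, among them quantile normalization (0.684) and median centring (0.982).

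Smad4, the shared partner that carries the receptor-activated SMADs into target genes, passed no test in any of the 6 comparisons. It measured 34.6, 31.3 and 32.6 FPKM in vehicle (32.8 ± 1.63, SD, n = 3), 34.6, 30.8 and 35.1 with ILA (33.5 ± 2.32), 33.2, 33.4 and 33.0 with GSK805 (33.2 ± 0.194) and 32.6, 31.2 and 31.9 with both compounds (31.9 ± 0.711). All neighbouring groups overlapped, and the largest difference from vehicle was log2 -0.04 with both compounds (adjusted p = 0.538). After median centring that difference became -0.18 and passed the test (0.0111).

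Smad7, the inhibitory SMAD that is itself induced by TGF-beta signalling, measured 13.9, 15.1 and 14.5 FPKM in vehicle (14.5 ± 0.585, SD, n = 3) and 16.7, 17.4 and 19.5 with ILA (17.9 ± 1.43, SD, n = 3). It rose 1.22-fold with ILA (adjusted p = 0.00276), a call lost after median centring (log2 0.15, adjusted p = 0.0813). GSK805 gave 17.2, 17.3 and 15.7 FPKM (16.7 ± 0.894, SD, n = 3), a log2 difference of 0.19 that missed the threshold (adjusted p = 0.0508). Without ILA replicate 1, ILA replicate 3, GSK805 replicate 3 or GSK805+ILA replicate 1 that difference passed (0.0318 to 0.0477), as it did with a pseudocount of 0.1 (0.0491), a filter at 5 FPKM (0.0387) and voom on recovered reads (0.0138). Both compounds gave 17.9, 20.0 and 19.3 FPKM (19.1 ± 1.07, SD, n = 3), 1.29-fold above vehicle (adjusted p = 0.00051).

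The 2 corepressors also parted. Ski measured 16.1, 18.3 and 18.6 FPKM in vehicle (17.6 ± 1.38, SD, n = 3) and 27.5, 26.1 and 25.5 with ILA (26.4 ± 1.03, SD, n = 3), a rise of 1.47-fold (log2 0.55 ± 0.06, SE; adjusted p = 1.2e-05). With GSK805 it measured 20.9, 19.7 and 18.5 FPKM (19.7 ± 1.2, SD, n = 3), overlapping vehicle (adjusted p = 0.0931, and 0.0304 with voom). With both compounds it measured 24.6, 24.8 and 23.5 FPKM (24.3 ± 0.678, SD, n = 3), 1.36-fold above vehicle (adjusted p = 9.2e-05). Skil, its close relative, went down with ILA.

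Skil measured 27.3, 27.9 and 29.6 FPKM in vehicle (28.3 ± 1.21, SD, n = 3) and 23.4, 22.0 and 22.0 with ILA (22.5 ± 0.792, SD, n = 3), a fall of 1.25-fold (log2 -0.32 ± 0.045, SE; adjusted p = 0.0001). GSK805 gave 26.9, 27.1 and 25.6 FPKM (26.6 ± 0.807, SD, n = 3). Those libraries all lay below the vehicle libraries, yet the difference of -0.09 did not pass the test (adjusted p = 0.204), though it did after median centring (-0.16, adjusted p = 0.0296). Both compounds gave 20.7, 21.1 and 19.6 FPKM (20.5 ± 0.779, SD, n = 3), 1.36-fold below vehicle (adjusted p = 9e-06).

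Against vehicle, ILA called 8 of the 9 genes, 6 higher and 2 lower, where 57.9% of all tested genes were called. GSK805 called 4, all higher, against 22.8% of all genes, and both compounds together called 8, 6 higher and 2 lower, against 52.1%. These 3 comparisons share the vehicle libraries. The median change of the 9 genes was log2 0.28 with ILA, 0.18 with GSK805 and 0.37 with both, beside 0.06, 0.05 and 0.06 over all tested genes. The median size of change was 0.35 for the 9 genes and 0.3 for all genes with ILA. The groups did not overlap for 8 of the 9 genes with ILA, where 62.8% of all tested genes did not overlap.

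**Figure D2:**
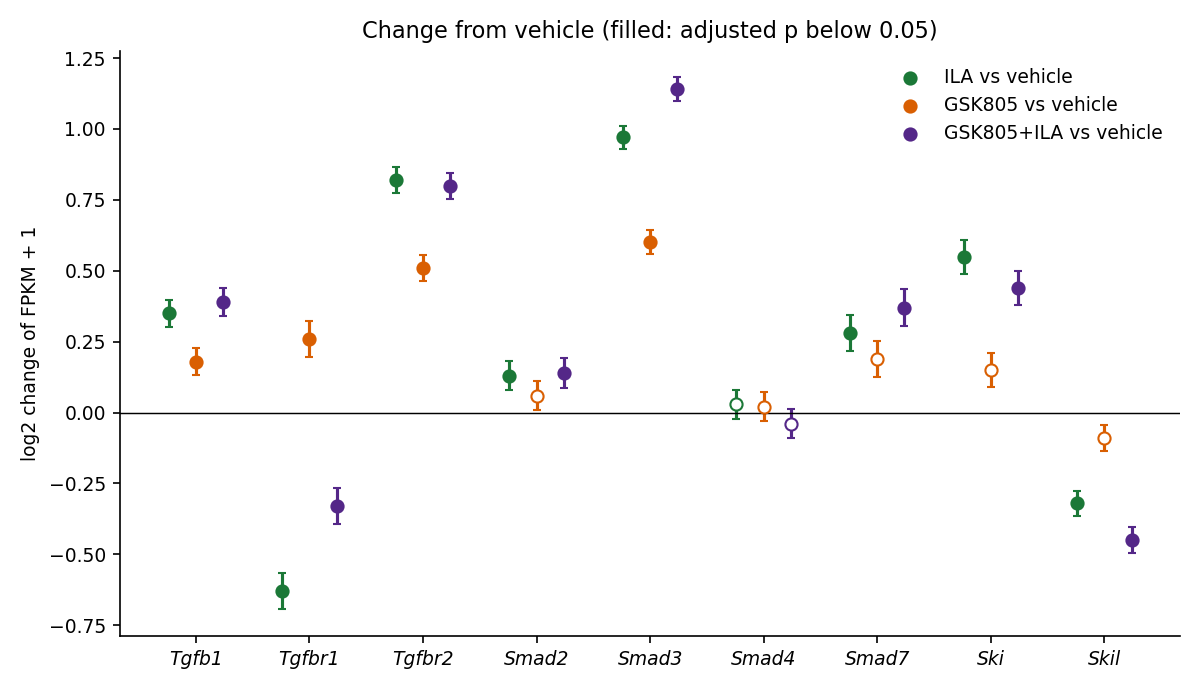
Log2 change of FPKM + 1 from vehicle (y axis) for each of the 9 genes (x axis) with ILA, GSK805 and both compounds; points are limma estimates, filled where the adjusted p was below 0.05, and error bars are their standard errors. Smad3 and Tgfbr2 lie farthest above 0 in each treatment, and Tgfbr1 lies below 0 with ILA (-0.63) and both compounds (-0.33) but above it with GSK805 (0.26).

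In cells that already had GSK805, adding ILA called 7 of the 9 genes, 5 higher and 2 lower, against 39.5% of all tested genes. Tgfbr1 fell 1.51-fold (adjusted p = 2.5e-05) and Skil 1.28-fold (adjusted p = 8.6e-05). Smad3 rose 1.45-fold (adjusted p = 3e-06), Tgfbr2 1.22-fold (adjusted p = 0.00047), Ski 1.22-fold (adjusted p = 0.00286) and Tgfb1 1.16-fold (adjusted p = 0.00494). Smad7 rose 1.13-fold (adjusted p = 0.0456), a call that held without vehicle replicate 1, ILA replicate 1, ILA replicate 3 or GSK805+ILA replicate 1 and was lost without each of the other 8 libraries (0.0506 to 0.16) and under 5 other settings, among them median centring (0.182) and removal of GC and length trends (0.236). In cells that already had ILA, adding GSK805 called 2 of the 9, Tgfbr1 and Smad3, both higher, against 18.6% of all tested genes. Skil missed the threshold there (log2 -0.13, adjusted p = 0.0674) and passed after quantile normalization (0.0299), with voom (0.0288) and after removal of GC and length trends (0.0435).

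Whether ILA acted to the same extent with and without GSK805 was tested by the interaction of the 2 compounds, which called 2 of the 9 genes, both negative, against 13.8% of all tested genes. For Tgfbr2 the single changes add up to log2 1.33, whereas both compounds together gave 0.8, a difference of -0.53 ± 0.065 (SE; adjusted p = 0.00114). For Smad3 they add up to 1.58 against 1.14, a difference of -0.44 ± 0.059 (SE; adjusted p = 0.00167). Ski had 0.71 against 0.44 and missed the threshold (-0.27, adjusted p = 0.0618), and it passed without GSK805 replicate 3 (0.0451), with a filter at 5 FPKM (0.0443) and with voom (0.00907). Tgfbr1 was close to the sum, at -0.33 against -0.37 (difference 0.04, adjusted p = 0.812), and Skil likewise, at -0.45 against -0.4 (difference -0.05, adjusted p = 0.683).

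**Figure D3:**
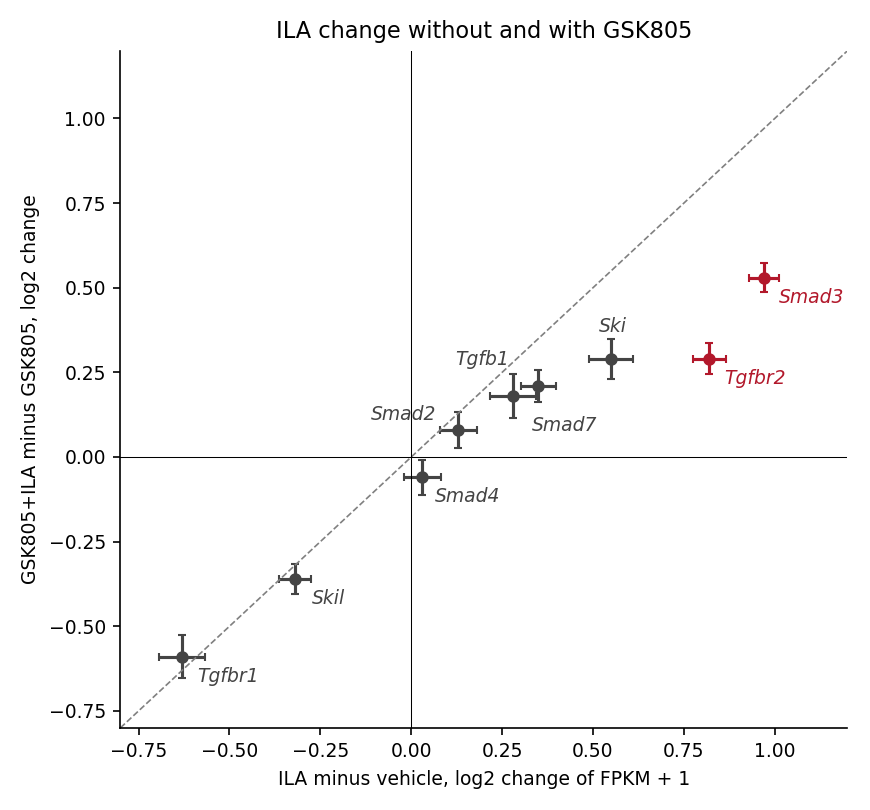
Log2 change of FPKM + 1 with ILA in the absence of GSK805 (x axis) and in its presence (y axis) for the 9 genes, with standard errors; the dashed line marks equal changes. Tgfbr2 (0.82 and 0.29) and Smad3 (0.97 and 0.53), in red, passed the interaction test and lie below the line, and Tgfbr1 and Skil lie beside it.

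FPKM is per length, so levels of different genes can be set against each other within a library, and such ratios do not depend on library scaling. The ratio of Tgfbr2 to Tgfbr1 was 1.76 ± 0.0772 in vehicle, 5.28 ± 0.14 with ILA, 2.09 ± 0.0993 with GSK805 and 4.07 ± 0.183 with both compounds (SD, n = 3). The ratio of Smad3 to Smad2 was 1.44 ± 0.0742, 2.65 ± 0.139, 2.15 ± 0.0834 and 2.96 ± 0.23 in the same order. Skil to Ski went from 1.61 ± 0.0844 in vehicle to 0.854 ± 0.0105 with ILA, 1.35 ± 0.0556 with GSK805 and 0.842 ± 0.00952 with both. Skil thus had the higher FPKM of the pair in vehicle and Ski in every library with ILA. Which gene of a pair is higher depends on the exon lengths used, whereas these lengths cancel when a ratio is compared between groups. Smad7 to Smad3 went from 1.04 ± 0.0829 to 0.629 ± 0.0488, 0.768 ± 0.032 and 0.598 ± 0.055. In all 12 comparisons with vehicle the 3 libraries of a group lay apart from the 3 vehicle libraries, and the two-sided exact permutation p was 0.1 (0.1 after Benjamini-Hochberg adjustment over the 12), the smallest that 3 against 3 libraries allow.

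**Figure D4:**
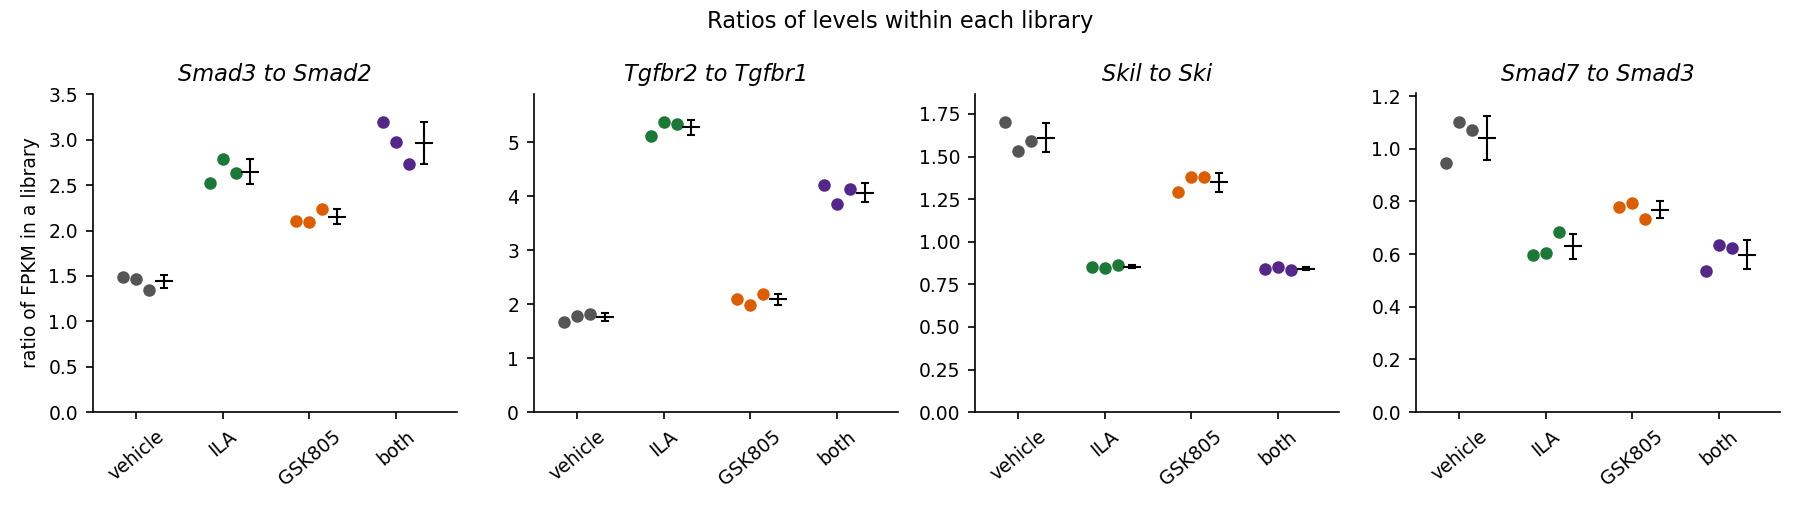
Ratios of FPKM within each library (y axis, from 0) for Smad3 to Smad2, Tgfbr2 to Tgfbr1, Skil to Ski and Smad7 to Smad3 in the 4 groups; points are libraries, with the mean and SD (n = 3). Tgfbr2 to Tgfbr1 is between 5.12 and 5.37 in the ILA libraries and between 1.67 and 1.82 in vehicle.

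Other genes of the pathway were followed by lists, whose counts are to be read against the 57.9% of all tested genes called with ILA, 22.8% with GSK805 and 52.1% with both compounds. Of the ligands and the proteins that release or activate them, 8 of 21 were above the filter, and with ILA 3 rose and 5 fell (1 and 5 after quantile normalization). Inhba, the activin A subunit, fell from 68.2 ± 4.47 to 15.4 ± 1.24 FPKM (SD, n = 3; adjusted p = 3e-08). Itgav, the integrin chain that helps release latent TGF-beta, fell from 36.6 ± 1.42 to 14.7 ± 0.547 FPKM (adjusted p = 1.5e-08), and Thbs1, an activator of latent TGF-beta, from 20.7 ± 1.04 to 6.62 ± 0.338 FPKM (adjusted p = 1.5e-08). Lrrc32 (GARP), which holds latent TGF-beta at the cell surface, rose from 0.339 ± 0.0713 to 2.38 ± 0.22 FPKM (adjusted p = 6.1e-07). With GSK805 it measured 0.342 FPKM and with both compounds 1.22. It thus passed the filter only through the groups given ILA, where it was high, and its place among the risers partly follows from the filter. Furin, the protease that cleaves the TGF-beta precursor, was 82.0 ± 1.19 FPKM in vehicle, 36.2 ± 1.77 with ILA (log2 -1.16, adjusted p = 5e-09), 61.1 ± 1.94 with GSK805 (-0.42, adjusted p = 0.00011) and 32.4 ± 1.49 with both (-1.31, adjusted p = 4e-09). The other TGF-beta ligands, Tgfb2 and Tgfb3, stayed below 1 FPKM in every group, as did the listed integrin chains Itgb6 and Itgb8. With GSK805, 1 gene of this list rose and 1 fell (1 and 3 without GSK805 replicate 3 or after median centring), and with both compounds 3 rose and 5 fell. With ILA the list's median was log2 -0.83, beside 0.06 for all tested genes.

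Of the other receptors of the family, 8 of 13 were above the filter. With ILA 5 of the 8 rose, against the 57.9% of all tested genes called, with GSK805 3 rose, and with both compounds 4 rose and 1 fell. Eng passed the filter only through the ILA group, at 1.17 FPKM beside 0.443 in vehicle. Acvrl1 passed it only through the groups given ILA. These 2 genes could be tested only because they were high there, so the counts of risers partly follow from the filter. Bmpr1a, a BMP type I receptor, was not called with ILA as deposited but was called lower after quantile normalization (adjusted p = 0.00441), after median centring (0.0132) and without ILA replicate 3 (0.02). Tgfbr3 (betaglycan), which presents ligand to Tgfbr2, went from 1.05 ± 0.00868 FPKM in vehicle to 3.84 ± 0.288 with ILA (adjusted p = 8.4e-08), 1.88 ± 0.157 with GSK805 (adjusted p = 0.00083) and 3.75 ± 0.19 with both. Its interaction was log2 -0.51 (adjusted p = 0.00945), negative as for Tgfbr2 and for 1175 of the 1871 genes called in that test. Acvrl1 (ALK1), a type I receptor, rose from 0.622 ± 0.138 to 3.42 ± 0.113 FPKM with ILA (adjusted p = 8.2e-07), while Tgfbr1 fell. Acvr1b (ALK4), the activin type I receptor, rose from 5.54 ± 0.89 to 8.91 ± 0.191 FPKM with ILA (adjusted p = 9.4e-05). Only 2 of the 4 other SMADs were above the filter: Smad1 passed no test as deposited, and Smad5 passed against vehicle with both compounds, at 6.44 ± 0.0495 and 7.44 ± 0.143 FPKM (adjusted p = 0.00775), a call lost after median centring (0.464) and quantile normalization (0.51). Under those same settings Smad1 was called lower with both compounds, at log2 -0.23 (adjusted p = 0.0234) and -0.26 (adjusted p = 0.0128).

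Of 20 tested SMAD regulators (21 listed), 4 rose and 7 fell with ILA, a share near the 57.9% of all tested genes called, 3 rose with GSK805, and 5 rose and 6 fell with both. Scaling moved these directions: with ILA 3 rose and 11 fell after quantile normalization and 1 and 9 after median centring, with GSK805 1 and 1, and 2 and 3, and with both compounds 1 and 7, and 1 and 9. The deposited counts for both compounds were 3 and 4 without vehicle replicate 3, and 2 and 4 without GSK805+ILA replicate 2. Nedd4l, which fell with ILA and with both compounds, passed the filter only through vehicle, at 1.23 FPKM. It measured 0.823 FPKM with ILA, 0.818 with GSK805 and 0.684 with both. Because Nedd4l could be tested only where vehicle was high, the counts of fallers partly follow from the filter. Pmepa1, a TGF-beta-induced protein that sequesters SMADs, went from 7.74 ± 0.433 FPKM to 5.27 ± 0.487 with ILA (adjusted p = 6.8e-05) and 9.67 ± 0.113 with GSK805 (adjusted p = 0.00912), the directions of Tgfbr1; after quantile normalization the GSK805 call was lost (0.0555). Strap, which stabilises the binding of Smad7 to the receptor, fell from 73.8 ± 2.71 to 57.0 ± 2.2 FPKM with ILA (adjusted p = 7.7e-05). Of 16 tested nuclear partners of the SMADs, 4 rose and 7 fell with ILA, 4 rose and 2 fell with GSK805, and 4 rose and 7 fell with both. The GSK805 counts were 1 and 1 without vehicle replicate 3, and 1 and 2 without vehicle replicate 2, ILA replicate 2 or any of the GSK805 libraries. After quantile normalization and after median centring they were 1 and 4. Runx3, a SMAD partner in T cells, rose from 6.27 ± 0.655 to 17.9 ± 0.57 FPKM with ILA (adjusted p = 5.9e-08), and Ncor1, a corepressor that Ski binds, from 22.7 ± 1.99 to 31.6 ± 0.209 FPKM (adjusted p = 1.5e-05). The repressors Zeb2 and Tgif1 fell with ILA, from 6.96 ± 0.316 to 2.02 ± 0.146 FPKM (adjusted p = 3.7e-08) and from 38.2 ± 0.864 to 18.1 ± 1.6 FPKM (adjusted p = 5e-08).

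Genes known to respond to TGF-beta did not move as a block, and the list shares Pmepa1 and Tgif1 with those above. Of 13 tested (16 listed), 5 rose and 5 fell with ILA, 3 rose and 7 fell with GSK805, and 3 rose and 7 fell with both, with medians of log2 0.14, -0.27 and -0.19. Itgae (CD103), induced by TGF-beta in T cells, rose from 2.98 ± 0.395 to 7.03 ± 0.455 FPKM with ILA (adjusted p = 1.9e-06), and Id3 from 17.4 ± 1.32 to 44.4 ± 3.79 FPKM (adjusted p = 5.3e-07). The cell cycle inhibitor Cdkn1a fell from 79.6 ± 5.83 to 44.6 ± 1.53 FPKM (adjusted p = 4.2e-07).

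**Figure D5:**
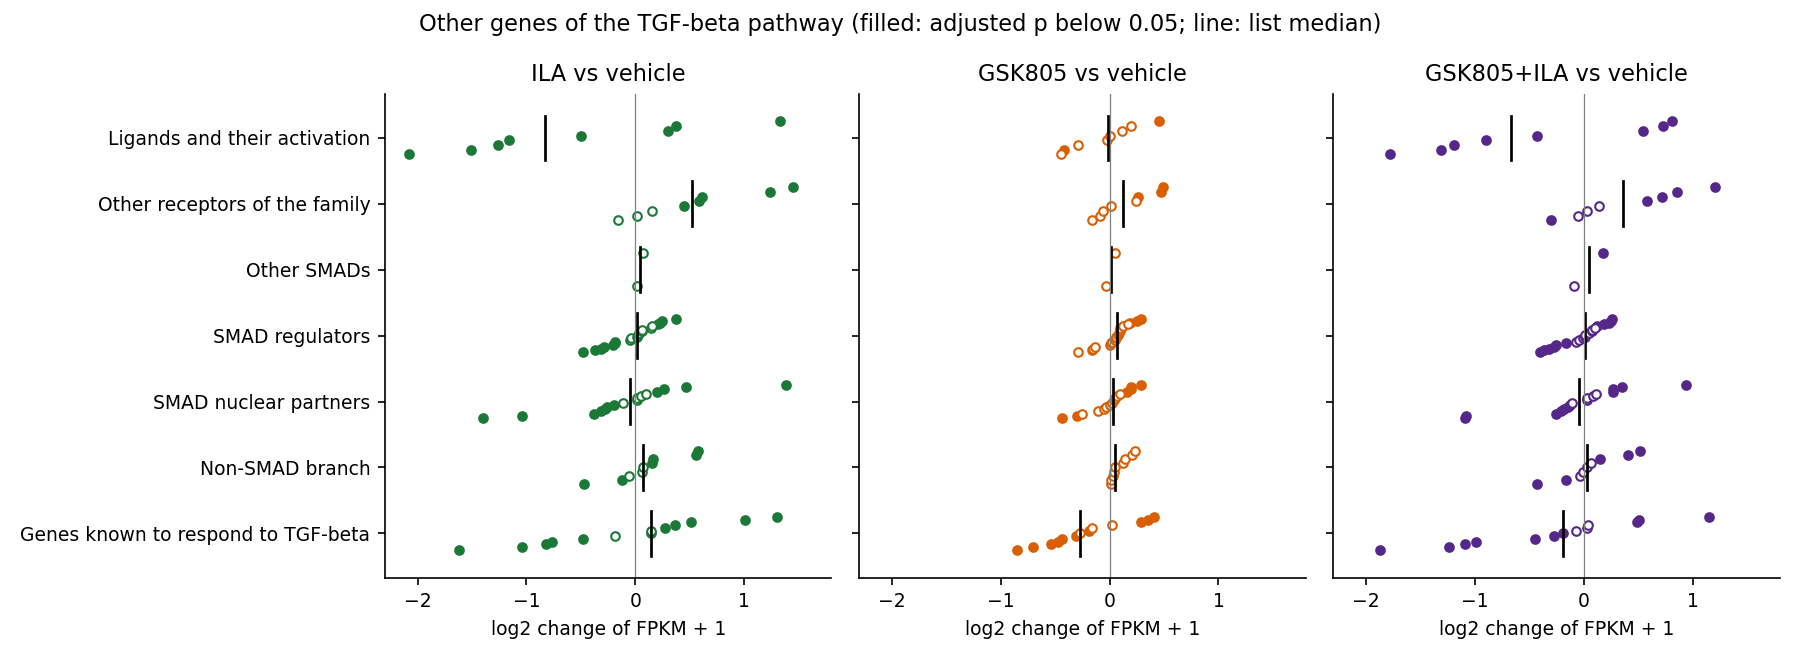
Log2 change of FPKM + 1 from vehicle (x axis) for the tested genes of the pathway lists (rows), with ILA, GSK805 and both compounds from left to right; each point is 1 gene, filled where the adjusted p was below 0.05, and the vertical line is the median of the list. Inhba (-2.08) and Lrrc32 (1.33) stand at the ends of the ligand list with ILA, and Lrrc32 passed the filter only through the groups given ILA.

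The patterns most like those of Smad3 and Tgfbr1, the 2 genes with the widest range of group means, were sought by the smallest root mean square difference of centred log2 values over the 12 libraries, among 8696 genes. For Smad3 they were Asap1, S1pr4 and Tmc8, at 0.0473, 0.0586 and 0.0621 (median of all genes 0.455). Asap1 measured 11.4 FPKM in vehicle, 22.0 with ILA, 17.9 with GSK805 and 24.8 with both. For Tgfbr1 they were Carhsp1, Trp53inp1 and Abtb2, at 0.0803, 0.0848 and 0.0874 (median 0.366). Trp53inp1 measured 145.0 FPKM in vehicle, 87.8 with ILA, 179.0 with GSK805 and 119.0 with both.

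The label of T helper cells was checked by markers. All 5 genes of the list (Cd3e, Cd3g, Cd4, Cd5, Cd28) were above 1 FPKM, but their summed level moved with the treatments: 217.0 to 222.0 FPKM in vehicle, 399.0 to 412.0 with ILA, 238.0 to 248.0 with GSK805 and 363.0 to 372.0 with both. The part of this in the changes of the 9 genes was not tested. The summed Th17 list, with Il17a, ran the other way, from 1220.0 to 1510.0 FPKM in vehicle, 435.0 to 479.0 with ILA, 354.0 to 405.0 with GSK805 and 173.0 to 199.0 with both. Lists for CD8 T and NK, B, myeloid and stromal cells summed to 1.46 to 11.4 FPKM in every library, and Pecam1 made up nearly all of the stromal sum. Platelet and erythroid genes summed to 0.926 to 2.77 FPKM, but to 43.1 FPKM in ILA replicate 2, where the haemoglobin genes Hbb-bs and Hba-a1 measured 23.3 and 18.2 FPKM. Leaving that library out changed no call of the 9 genes between ILA and vehicle. Between ILA and vehicle, 58.6% of all calls were higher as deposited and 40.9% after median centring. For GSK805 the share went from 68.9% to 40.3%, for both compounds from 61.1% to 40.2%, for both against GSK805 from 55.7% to 41.6%, and for the interaction from 37.2% to 63.2%.

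On GRCm38, Tgfb1 (ENSMUSG00000002603) lies on chromosome 7 at 25687002 to 25705077, Tgfbr1 (ENSMUSG00000007613) on chromosome 4 at 47353222 to 47414931, Tgfbr2 (ENSMUSG00000032440) on chromosome 9 at 116084293 to 116175360, Smad3 (ENSMUSG00000032402) on chromosome 9 at 63646767 to 63757994, Ski (ENSMUSG00000029050) on chromosome 4 at 155154075 to 155222592 and Skil (ENSMUSG00000027660) on chromosome 3 at 31095058 to 31122577. Smad2 (ENSMUSG00000024563), Smad4 (ENSMUSG00000024515) and Smad7 (ENSMUSG00000025880) lie on chromosome 18 at 76241580 to 76310963, 73639009 to 73703780 and 75367529 to 75395935. Smad4 overlaps the pseudogene AC132418.2 on the opposite strand, with 0 shared exon bases, and the other 8 genes overlap no annotated gene.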

How the data were processed

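The deposited values are FPKM per gene and library; per the submitters' processing notes, FastQC 0.11.2 and Bowtie were used with mm10. Counting program, annotation and strand setting: not given in the sources used here. Samples were grouped by their titles. FPKM are not counts, so limma 3.58.1 (R 4.3.3) was fitted to log2(FPKM + 1) of all 12 libraries, with 1 mean per group and trend and robust moderation, for genes whose mean reached 1 FPKM in any group. Whole reads were recovered from FPKM with GENCODE exon lengths (98.7 to 98.8% of values within 0.1 of a whole number), and a voom fit on them is an alternative. Other alternatives were pseudocount, filter, scaling, moderation, replicate block, the groups fitted, and leaving out each library. Scripts were tested on simulated data. Replicate libraries were not duplicates. The genes and lists were chosen with earlier results of these data known. From each list, at most 3 genes higher and 3 lower per comparison could be named, by size of change among called genes with groups that do not overlap (a condition dropped for the interaction). Genes of like pattern were sought among those with a group mean of at least 5 FPKM. Some listed genes are not reported here by name. Ratios were tested by exact permutation. Promoters of 5 genes came from RefSeq; Skil had no entry. Python 3.11.15 was used.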

Additional observations from a re-analysis of the deposited data

Results flagged for a closer look

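Tgfbr2 is set apart because its change with ILA differed between cells without and with GSK805, by log2 -0.53 in the interaction test (limma, adjusted p = 0.00114). The 3 ILA libraries lay above the 3 vehicle libraries, and the libraries with both compounds above those with GSK805 alone, so that the size of the rise differed and not its direction.

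Smad3 is set apart for the same reason, with an interaction of log2 -0.44 (limma, adjusted p = 0.00167) and a rise in all 3 libraries on both backgrounds.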

How the results depend on the processing

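The calls of the 9 genes were recomputed under 10 other settings (9 for the interaction) and without each library in turn, and the ratios with FPKM + 1 and without each library of the groups compared. For the 9 genes, 606 of the values without 1 library and 489 of the others kept direction and call, and for the other genes named by rule no direction turned and 2801 values kept the call, against 340 that lost it. Directions that turned were of small, uncalled or borderline differences. After median centring, Smad2 turned to log2 -0.0034 (ILA), -0.02 (GSK805) and 0.03 (interaction), Smad4 to -0.11 (ILA) and -0.06 (GSK805), and Skil to 0.03 (interaction). After quantile normalization Smad2 turned to -0.02 with GSK805, -0.0035 between both compounds and ILA, and 0.01 in the interaction, and after removal of GC and length trends to -0.01 between both compounds and ILA. Without 1 library, the Tgfbr1 interaction ranged from -0.0016 to 0.08. Between both compounds and ILA, Tgfbr2 ranged from -0.06 to 0.01 and Smad2 from -0.03 to 0.03. Smad4 ranged from -0.0057 to 0.08 with ILA and from -0.01 to 0.05 with GSK805. The cause was not tested.

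Between both compounds and ILA, the genes called ranged from 1 to 2 without 1 library, the lower count being without ILA replicate 1 or GSK805+ILA replicate 1. With FPKM + 1 the log2 ratio of Tgfbr2 to Tgfbr1 differed from vehicle by 1.45 with ILA and 1.13 with both compounds, where it was 1.58 and 1.21. Median centring moved the median change of all tested genes from 0.06 to -0.07 with ILA and with both compounds. Over all genes, the interaction called 1871 genes and 1067 with no filter on low values, where 29522 genes were tested, and GSK805+ILA against ILA called 2507 genes and 1596 without GSK805+ILA replicate 3.

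Replicate numbers showed no clear pairing over all groups: the 18 pairs of equal number had correlations of -0.082 to 0.078 between their deviations, and the 36 other pairs -0.064 to 0.08. Between ILA and GSK805, however, the pairs of equal number were at 0.053, 0.05 and 0.078, and the other pairs at -0.041 to -0.013. Ranges over all groups cannot exclude pairing of some groups. With a replicate block, 7 of the 9 genes were called with ILA, 4 with GSK805, 7 with both compounds, 7 between both and GSK805, 2 between both and ILA, and 2 in the interaction. Depth gave 631 reads or more per gene and library, so it limits these 9 genes little.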

Other observations

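The branch of TGF-beta signalling that does not use SMADs, through TRAF6, TAK1 and PI3 kinase, had 9 of 9 listed genes above the filter. With ILA 4 rose and 2 fell, with GSK805 0 passed the test in limma (2 at an unadjusted p below 0.05), and with both compounds 3 rose and 2 fell. Over all tested genes 57.9%, 22.8% and 52.1% were called in these comparisons. After median centring the counts were 2 and 3 with ILA and 2 and 4 with both compounds. Traf6, the ubiquitin ligase that links the receptor to TAK1, fell from 19.4 ± 0.574 to 13.8 ± 0.152 FPKM with ILA (SD, n = 3; adjusted p = 1.7e-06). Tab1, the partner that activates TAK1, rose from 4.84 ± 0.961 to 7.63 ± 0.552 FPKM (adjusted p = 0.00078), and Pik3r1, the regulatory subunit of PI3 kinase, from 4.57 ± 0.429 to 7.17 ± 0.272 FPKM (adjusted p = 4.4e-05). With GSK805 alone, Traf6 measured 19.6 ± 0.768 FPKM. The count of 0 with GSK805 rose to 2 with voom on the recovered reads, and to 1 without any 1 of the vehicle libraries, GSK805 replicate 3, GSK805+ILA replicate 1 or GSK805+ILA replicate 3.

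The 3 regulatory T cell genes (Foxp3, Ikzf2, Il2ra) summed to 235.0 to 243.0 FPKM in vehicle, 152.0 to 166.0 with ILA, 255.0 to 269.0 with GSK805 and 182.0 to 193.0 with both compounds. Nearly all of the sum was Il2ra, an activation marker too, at means of 238.0, 157.0, 259.0 and 184.0 FPKM, and Ikzf2 stayed below 1 FPKM. Foxp3 did not follow the sum: it was 1.23 ± 0.306 FPKM in vehicle, 1.68 ± 0.173 with ILA, 1.84 ± 0.0754 with GSK805 and 2.17 ± 0.0221 with both compounds (SD, n = 3). The limma adjusted p was 0.0368, 0.0267 and 0.00114. The ILA call was lost without vehicle replicate 1 or 3 or ILA replicate 1 or 2 (0.0517 to 0.126), and the GSK805 call without vehicle replicate 1 or 3 or any of the GSK805 libraries (0.0515 to 0.0975). Both calls were also lost after quantile normalization (0.465 with ILA, 0.0659 with GSK805) and median centring (0.281 and 0.0817). The same held with no filter (0.0668 and 0.0551) and with only the groups compared (0.117 and 0.0897). The ILA call was lost too with the replicate block (0.0544) and after removal of GC and length trends (0.142).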
